A study of Mus musculus with 10 samples.

Results

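Decorin (Dcn), lumican (Lum), fibromodulin (Fmod), biglycan (Bgn), periostin (Postn), fibronectin (Fn1), osteonectin (Sparc), fibrillin-1 (Fbn1), the gelatinase Mmp2 and the protease inhibitor Timp1 were followed in the gastrocnemius, a calf muscle. They were chosen by name, with earlier results of these data known. All 10 are non-collagen genes of the extracellular matrix and its fibroblasts, out of 18193 genes on the array. Every probe set annotated to 1 of them alone was taken, which gave 21 of 45037 probe sets for 9 genes; Fbn1 had no such probe set. The knockout mice lacked Skn-1, also called Pou2f3, a transcription factor of taste and tuft cells, and the controls were wild type. Both were male, on a background labelled as mixed 129 x C57BL/6J and, per the labels' protocols, backcrossed to C57BL/6J for over 10 generations. All were fed chow, were 12 to 16 weeks old and had fasted for 18 h. There were 5 arrays of each genotype, called biological replicates in the labels, and their number limits the precision. The deletion is not described as limited to a tissue, so the labels do not tie it to muscle cells.

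Small leucine-rich proteoglycans are short secreted core proteins built of leucine-rich repeats, many with glycosaminoglycan chains. Decorin and biglycan carry chondroitin or dermatan sulphate, lumican and fibromodulin keratan sulphate, and these proteins bind collagen fibrils and tune how fibrils assemble; decorin and biglycan also bind TGF-beta. Fibronectin, fibrillin-1 and periostin are adhesive or fibre-forming glycoproteins that cells grip through integrins, Sparc binds collagen, Mmp2 cuts denatured collagen and basement membrane, and Timp1 blocks metalloproteinases. In muscle, interstitial fibroblasts make much of this matrix.

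Values were the deposited ones on a scale read as log2. Most probe sets of this table hardly varied, so a probe set is called varying where its SD over the 10 arrays was above 0.01. Of the 21 probe sets 17 varied, from 8 genes. The rule's limit fell in a wide gap: the least variable of the 17, of Bgn, had an SD of 0.137 and the most variable of the other 4, of Fn1, an SD of 0.000276. Those 4 were the only Timp1 probe set, at 6.11 in all 10 arrays, and single further probe sets of Fn1 at 5.93, Bgn at 7.89 and Sparc at 6.66. Timp1 and this Fn1 probe set were dimmer than the median probe set of every array, and no detection call was used here. A difference in these 4 has no size that can be read, so Timp1 gave no comparison.

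The arrays read as skeletal muscle. All 15 measured skeletal muscle markers, among them the creatine kinase Ckm and the myosin light chain Mylpf, lay above the array median, and their mean level ran from 13.14 to 13.19. They cannot tell 1 muscle from another. Some hardly varied near the highest value of the arrays, such as Acta1 at 13.96, and cannot show how much other tissue an array held. The single Pou2f3 probe set hardly varied (6.47 in both genotypes, exact two-sided permutation p = 0.571) and could not check the genotype labels. In 5 arrays genes of other tissues stood over 1 log2 unit above the median array. Epidermis markers (14 varying of 16 measured genes) did so in knockout 1 by 1.47 and in knockout 4 by 1.83, hair markers (13 of 15) in wild type 1 by 2.17 and in wild type 3 by 1.46, and B and T lymphocyte markers (11 of 15) in knockout 5 by 1.73 and in wild type 3 by 1.80. The mean level of the epidermis list ran from 6.07 to 7.76 in knockouts and from 6.03 to 6.82 in wild types, that of the hair list from 5.92 to 5.97 and from 5.93 to 7.84, and that of the lymphocyte list from 6.26 to 7.59 and from 6.25 to 7.64. All 19 varying epidermis probe sets were higher in knockouts on average (median 0.37) and all 13 of hair lower (median −0.63), while of the 18 for lymphocytes 10 were higher and 8 lower; 0 of them passed the adjusted threshold. Their part in the results below was not tested. Differences of the members are also given without these 5 arrays, which leaves 2 knockouts and 3 wild types. Macrophage and adipocyte lists were highest in wild type 3, by 0.57 and 0.67. In bulk muscle, fewer cells of a type and less RNA per cell cannot be told apart.

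**Figure D1:**
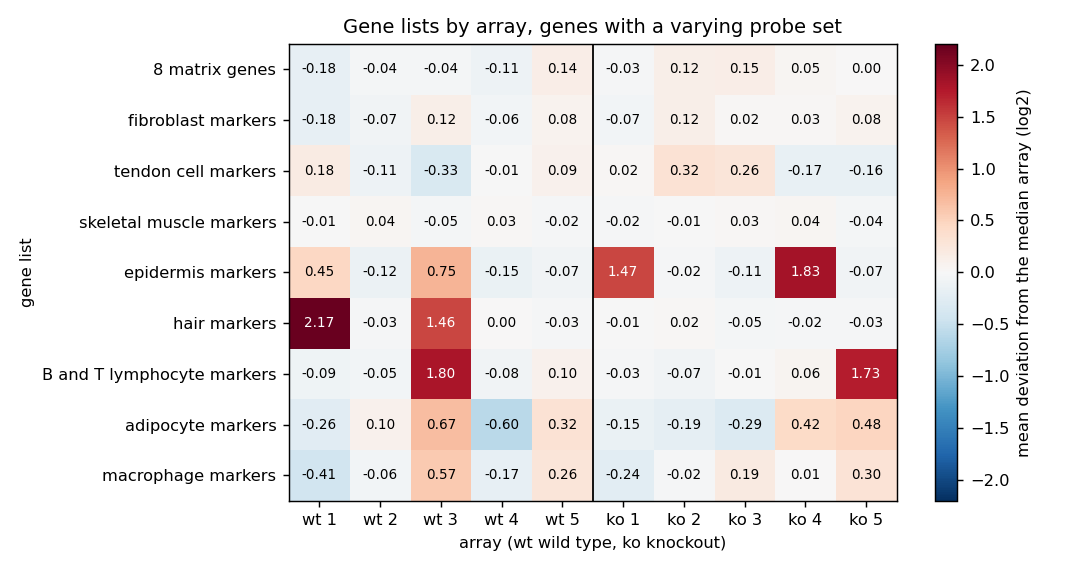
Mean deviation of each gene list from the median array (log2), over genes with a varying probe set, for 5 wild-type (wt) and 5 knockout (ko) arrays. The 8 matrix genes moved between −0.18 in wild type 1 and 0.15 in knockout 3, while hair markers stood at 2.17 in wild type 1 and lymphocyte markers at 1.80 in wild type 3; the tendon list contains Fmod.

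Promoter windows from RefSeq (build GRCm38.p6) were at hand for 6 of the 10 genes, among them Fmod, Bgn, Postn and Sparc. They are shown for these 4 because Sparc varied over the arrays with Fn1, Mmp2 and Dcn, Bgn and Postn less clearly so, and Fmod apart from them, as described below. Each window holds the 250 bases before an annotated start, 5′ to 3′ on the gene's strand, and capitals mark matches to the TATA box TATAAA, the GC box GGGCGG or the AP-1 motif TGANTCA, searched on both strands. The Sparc window is chr11:55420081-55420330 (minus strand), the Bgn window chrX:73483351-73483600, the Fmod window chr1:134037004-134037253 (both plus strand) and the window of the second of 2 annotated Postn starts chr3:54360857-54361106 (plus strand).
Sparc: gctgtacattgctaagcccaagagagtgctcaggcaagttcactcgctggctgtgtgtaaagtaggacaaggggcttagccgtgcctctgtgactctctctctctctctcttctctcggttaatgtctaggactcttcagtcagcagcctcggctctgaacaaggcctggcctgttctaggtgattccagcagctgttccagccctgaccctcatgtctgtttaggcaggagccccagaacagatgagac
Bgn: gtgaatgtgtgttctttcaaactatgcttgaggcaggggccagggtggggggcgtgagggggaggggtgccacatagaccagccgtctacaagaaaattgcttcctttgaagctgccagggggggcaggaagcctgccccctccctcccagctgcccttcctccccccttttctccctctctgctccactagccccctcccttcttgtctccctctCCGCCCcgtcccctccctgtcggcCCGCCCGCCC
Postn: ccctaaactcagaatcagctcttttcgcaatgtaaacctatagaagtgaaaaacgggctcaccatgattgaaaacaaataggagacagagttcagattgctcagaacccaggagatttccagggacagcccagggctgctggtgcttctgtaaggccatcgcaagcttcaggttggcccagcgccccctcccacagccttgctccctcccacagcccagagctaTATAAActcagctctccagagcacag
Fmod: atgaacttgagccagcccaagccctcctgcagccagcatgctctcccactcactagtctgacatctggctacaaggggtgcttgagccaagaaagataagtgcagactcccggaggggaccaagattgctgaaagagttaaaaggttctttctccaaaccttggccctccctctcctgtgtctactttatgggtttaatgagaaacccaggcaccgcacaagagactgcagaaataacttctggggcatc
Postn had TATAAA from 26 to 21 bases before its start, and Bgn had 3 copies of GGGCGG on the opposite strand within 34 bases of its start, the last 2 overlapping. Sparc and Fmod had no match to the 3 motifs, and the other Postn start had none either. Of 32851 promoter windows of this length, 12.37% held TATAAA, 32.74% GGGCGG and 6.75% TGANTCA, so these matches describe the windows and mark no site.

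None of the 8 matrix genes that could be compared passed the test between knockout and wild-type muscle. By limma with Benjamini-Hochberg adjustment over all 45037 probe sets, 0 of 21 probe sets passed an adjusted p of 0.05, where 0.191% of all probe sets did (86). Among varying probe sets the share was 0.966%. At an unadjusted limma p under 0.05 there was 1, that of Lum, which was higher in knockouts; 6.62% of all probe sets and 9.92% of the 6209 varying ones had such a p, and 7.44% of the varying ones were higher too, so 1 of 17 is near the background. Of the 17, 13 were higher in knockouts and 4 lower, with a median difference of 0.10, against −0.0021 over all varying probe sets, of which 3054 of 6209 were higher. Of the 17, 6 belong to Fmod and share its transcript, so they are not separate votes. With the brightest probe set for each gene, 0 of 9 genes passed (0.0275% of 18193 genes did, 5 in all). An exact permutation test adjusted over all probe sets called 0 in the whole table. The smallest p that 5 against 5 arrays allow, 0.00794, became 0.495 after adjustment, for Lum as well. It could pass only if far more probe sets shared it. Taken 1 at a time, no 95% interval of the 17 went beyond 0.54 in either direction, or 1.45-fold on the scale read as log2. These intervals were not adjusted for the number of probe sets and came from all 10 arrays, so they do not bound the 17 together. Without the 5 arrays with other tissue the largest, Lum, was at 0.37 ± 0.171 SE.

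**Figure D2:**
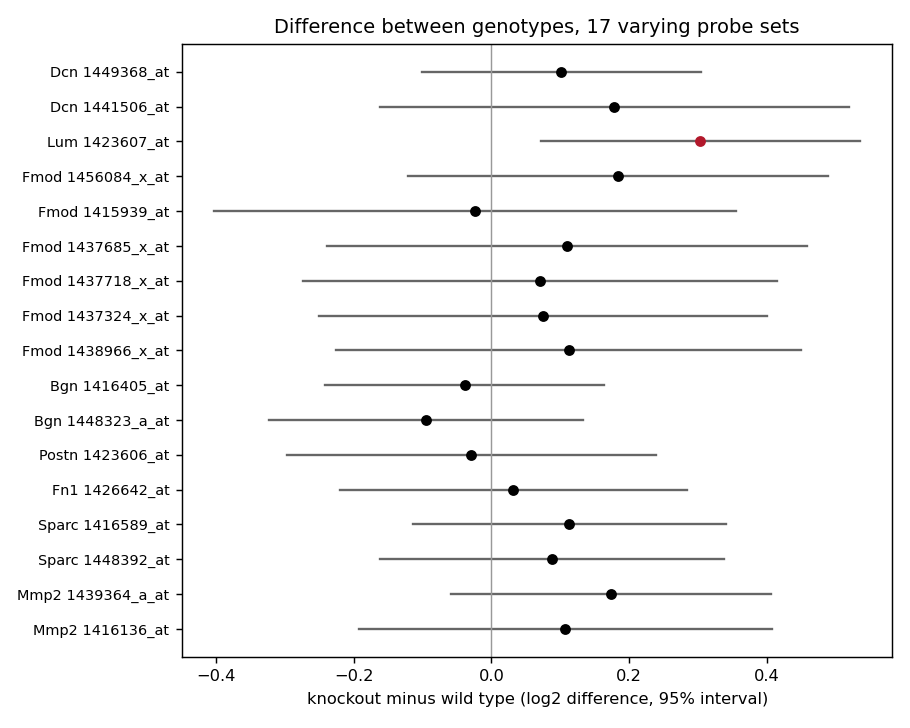
Knockout minus wild type (log2) for the 17 varying probe sets, with 95% intervals from limma; the red point is the probe set whose groups did not overlap. The interval of Lum ran from 0.071 to 0.54 before adjustment for the number of tests, and the other 16 intervals held 0.

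Lumican had the largest difference of the 8 genes when all 10 arrays were used. The single Lum probe set (1423607_at) read 8.46, 8.33, 8.81, 8.75 and 8.35 in knockouts 1 to 5 and 8.30, 8.19, 8.26, 8.18 and 8.24 in wild types 1 to 5. All knockouts lay above all wild types, by a small margin between knockout 2 and wild type 1, while knockouts 3 and 4 stood well above the rest. Means were 8.54 ± 0.227 for knockouts and 8.24 ± 0.0514 for wild types (SD, n = 5 each). On the scale read as log2 the difference of 0.30 ± 0.102 SE is a fold of 1.23 (95% interval 1.05 to 1.45), with a limma adjusted p = 0.566. The exact two-sided permutation p = 0.00794 is the smallest that 5 against 5 arrays allow, and 3.96% of varying probe sets had groups that did not overlap, 3.37% with all knockouts above all wild types. Over 19 alternatives the difference stayed between 0.23 and 0.37 and its adjusted p was never below 0.244. It was lowest without knockout 3 and largest with the 5 arrays of mixed tissue left out (limma adjusted p = 0.870).

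Decorin did not differ beyond the spread between arrays. Its bright probe set (1449368_at) read 12.97, 13.03, 12.96, 12.99 and 12.96 in knockouts and 12.53, 12.99, 12.91, 12.93 and 13.04 in wild types. The groups overlapped, and wild type 1, which carried hair genes, stood far below the other 9 arrays. The log2 difference was 0.10 ± 0.089 SE (95% interval −0.10 to 0.30, limma adjusted p = 0.949), and it was 0.014 without wild type 1 and 0.0096 without the 5 arrays. A dimmer probe set (1441506_at) was at 7.12 ± 0.201 in knockouts and 6.94 ± 0.277 in wild types (difference 0.18, limma adjusted p = 0.946), and its sign turned without the 5 arrays (−0.10).

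Fibromodulin was read by 6 probe sets, which moved together over the arrays but were not of 1 sign between genotypes. In the brightest (1456084_x_at) the values were 10.54, 10.80, 10.64, 10.33 and 10.58 in knockouts and 10.70, 10.35, 10.00, 10.45 and 10.48 in wild types. Knockout 2 and wild type 1 were high, wild type 3 was low, and the groups overlapped. Its log2 difference was 0.18 ± 0.13 SE (limma adjusted p = 0.932). It was 0.086 without wild type 3 and 0.30 without the 5 arrays (limma adjusted p = 0.837). The 4 other probe sets with the suffix x, a mark of probes that can also match other transcripts, differed by 0.070 to 0.11, and by 0.21 to 0.28 without the 5 arrays. The probe set without that suffix (1415939_at) differed by −0.023 (95% interval −0.40 to 0.36, limma adjusted p = 0.9996) and by 0.24 without the 5 arrays. Over the 10 arrays the 15 pairs of Fmod probe sets correlated with Pearson r from 0.83 to 0.99, all with adjusted permutation p under 0.05, so the probe sets agreed on which arrays were high.

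**Figure D3:**
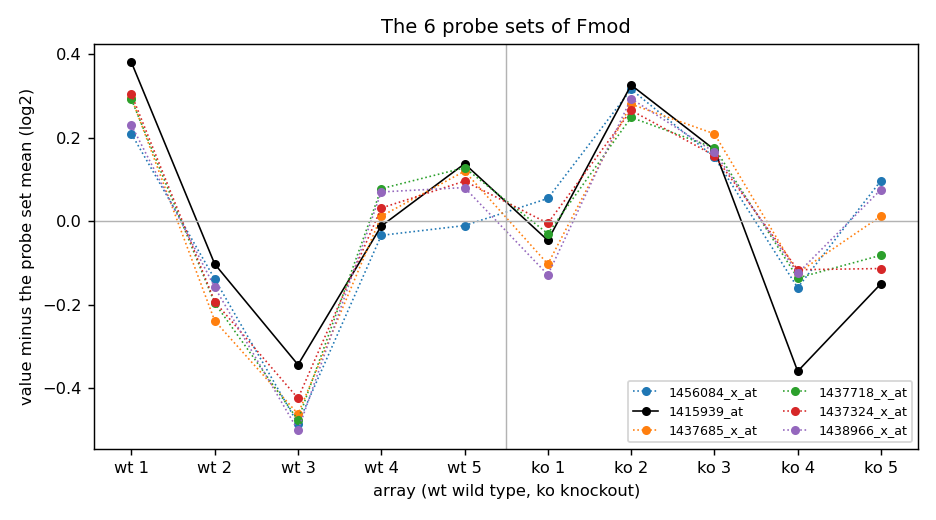
Values of the 6 Fmod probe sets minus each probe set's own mean (log2) in 5 wild-type (wt) and 5 knockout (ko) arrays; lines only join the values of a probe set, and the solid black line is 1415939_at. All 6 were high in wild type 1 and knockout 2 and low in wild type 3, and 1415939_at was lower than the others in knockout 4.

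Biglycan was lower in knockouts by less than its spread. The brighter varying probe set (1416405_at) read 9.34, 9.40, 9.56, 9.28 and 9.44 in knockouts and 9.22, 9.54, 9.40, 9.38 and 9.67 in wild types. Wild type 1 was lowest and wild type 5 highest, so the wild types enclosed the knockouts. The log2 difference was −0.039 ± 0.089 SE (95% interval −0.24 to 0.16, limma adjusted p = 0.991), and in the second probe set −0.095 (adjusted p = 0.964). Without the 5 arrays the values were −0.050 and −0.091, and that of the brighter probe set turned to 0.019 without wild type 5.

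Of the other small leucine-rich proteoglycans, 4 of the 11 measured genes (12 listed) had varying probe sets. None of the 5 probe sets passed, and all 5 were higher in knockouts, with a median of 0.093. Ogn, osteoglycin, differed by 0.18 (limma adjusted p = 0.721) in 1 probe set and by 0.030 in its brighter one. Kera, keratocan, which is found in cornea and tendon, stood at 7.55 ± 0.445 in knockouts and 7.30 ± 0.310 in wild types (difference 0.25, limma adjusted p = 0.957). The Kera difference was 0.13 without knockout 2, 0.14 without wild type 3, 0.39 without knockout 5 and 0.58 without the 5 arrays (limma adjusted p = 0.810), where it was above the 0.37 of Lum. That of Ogn was 0.29 without the 5 arrays.

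The adhesive and matricellular glycoproteins showed no difference between genotypes past the test. Fn1 (1426642_at) read 9.27, 9.58, 9.58, 9.51 and 9.33 in knockouts and 9.15, 9.40, 9.56, 9.33 and 9.69 in wild types. The knockouts lay inside the wild-type range, from wild type 1 to wild type 5. The log2 difference was 0.032 ± 0.11 SE (95% interval −0.22 to 0.28, limma adjusted p = 0.998), and 0.11 without the 5 arrays. It turned to −0.038 without wild type 1. Postn (1423606_at) read 7.899, 8.003, 8.037, 8.152 and 7.999 in knockouts and 7.92, 8.02, 8.30, 7.70 and 8.29 in wild types. Wild types 3 and 5 were highest and wild type 4 lowest, so here too the wild types enclosed the knockouts (difference −0.029 ± 0.12 SE, limma adjusted p = 0.999; 0.015 without the 5 arrays). Sparc (1416589_at) read 11.23, 11.55, 11.34, 11.20 and 11.30 in knockouts and 10.97, 11.12, 11.28, 11.22 and 11.46 in wild types. Wild type 1 was lowest and knockout 2 highest, with overlap between the groups. Sparc differed by 0.11 ± 0.0996 SE (95% interval −0.11 to 0.34, limma adjusted p = 0.949), and by 0.088 in its second varying probe set. The brighter one differed by 0.053 without wild type 1, 0.057 without knockout 2, 0.18 without wild type 5 and 0.18 without the 5 arrays, and the second by 0.047, 0.029, 0.17 and 0.18. With the 3 members that the list of matricellular and adhesive glycoproteins shares, 25 of its probe sets varied, from 17 genes, and 0 passed; 18 were higher and 7 lower (median 0.035). Thbs2, a thrombospondin that tempers collagen fibril growth, differed by 0.16 and Tgfbi, an integrin-binding matrix protein, by 0.091, with limma adjusted p of 0.931 and 0.965. Of elastic fibre and fibulin genes 5 probe sets varied, 2 higher and 3 lower, and 0 passed. Efemp1, fibulin-3, differed by 0.16 and Mfge8 by −0.063.

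The gelatinase Mmp2 did not pass either. Its brighter probe set (1439364_a_at) read 8.74, 8.99, 8.96, 8.89 and 8.77 in knockouts and 8.44, 8.79, 8.63, 8.64 and 8.99 in wild types. Wild type 1 was again lowest, and wild type 5 lay among the highest knockouts. Means were 8.87 ± 0.111 for knockouts and 8.70 ± 0.205 for wild types (SD over 5 arrays; difference 0.17 ± 0.10 SE, 95% interval −0.058 to 0.41, limma adjusted p = 0.884). That difference was 0.11 without wild type 1 and 0.17 without the 5 arrays. The second probe set (1416136_at) differed by 0.11, by 0.013 without wild type 1, 0.064 without knockout 2, 0.20 without wild type 5 and 0.10 without the 5 arrays. Among matrix proteases and their inhibitors 17 probe sets of 11 genes varied, 15 higher and 2 lower in knockouts (median 0.052), and 0 passed. Pcolce, which speeds removal of the procollagen C-propeptide, differed by 0.15 ± 0.054 SE (limma adjusted p = 0.633), and the aggrecanase Adamts5 by 0.10.

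**Figure D4:**
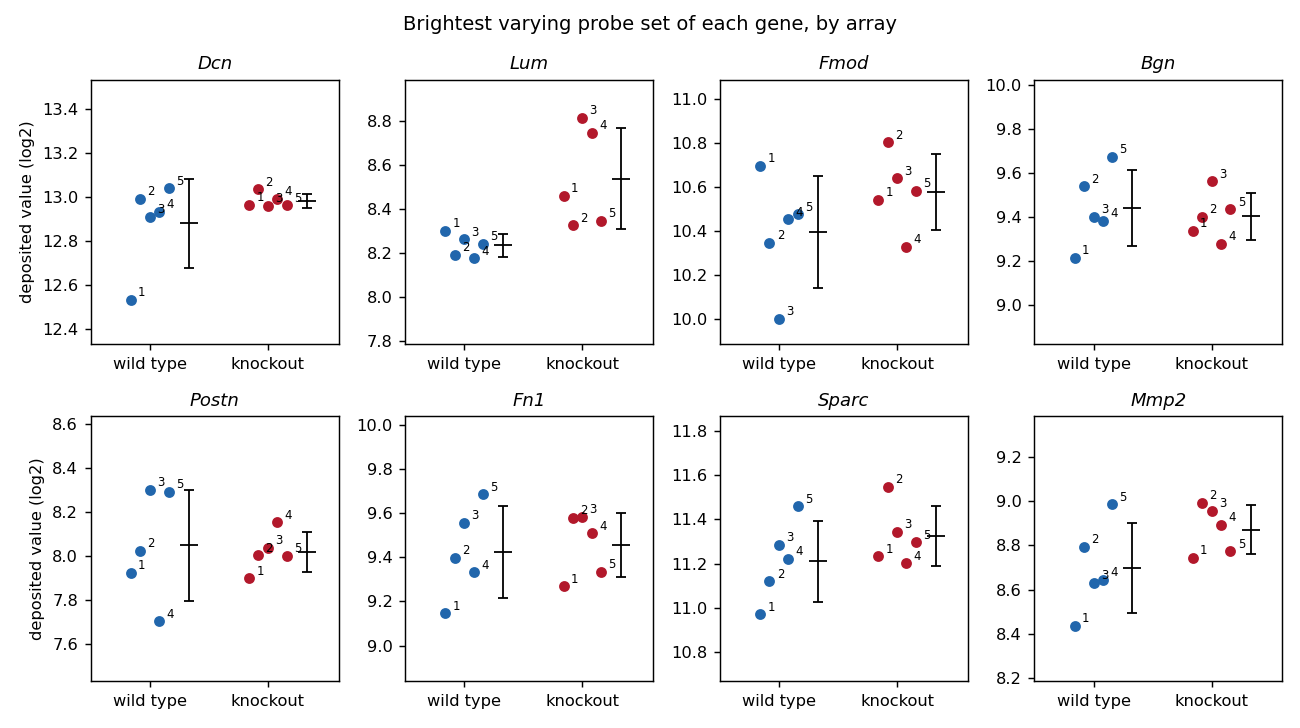
Deposited value (log2) of the brightest varying probe set of 8 genes, a point per array numbered by replicate, with mean and SD at the side (n = 5 per genotype; every panel spans the same width in log2 units). Lum in knockouts lay above all wild types, and wild type 1 was lowest for Dcn, Bgn, Fn1, Sparc and Mmp2.

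The wider matrix pathway gave the same picture. Across 8 lists, members left out, 98 probe sets of 67 genes varied; 0 of all 328 passed the adjusted threshold. Of the 98, 6 (6.12%) had an unadjusted limma p under 0.05, all higher in knockouts. Of all varying probe sets 9.92% had such a p, and 7.44% had it and were higher. In direction, 68 of the 98 were higher and 30 lower (median 0.045), beside 49.2% higher among all varying probe sets. Some of the 98 share a gene, so they are not separate votes. In the collagen fibril and crosslinking list 11 of 13 varying probe sets were higher (median 0.15), with the crosslinking enzyme Lox at 0.17 (limma adjusted p = 0.737; 0.065 in its other probe set) and Col1a1 at 0.38 (adjusted p = 0.915; 0.18 in its other probe set). Of large proteoglycans and basement membrane genes 4 were higher and 6 lower. Nid1, nidogen-1, which links laminin to collagen IV, stood at 8.22 ± 0.0580 in knockouts and 7.97 ± 0.149 in wild types (SD over 5 arrays each) without overlap (difference 0.26, limma adjusted p = 0.377), while its brighter probe set differed by −0.0024. The heparan sulphate proteoglycan Sdc4 differed by 0.37 (adjusted p = 0.756), and by 0.029 in its other probe set. Of TGF-beta ligands and signalling genes 6 were higher and 3 lower, with Tgfb2 at 0.22 and the activin receptor Acvr2a at 0.13 (limma adjusted p = 0.872 and 0.856). Without the 5 arrays the differences moved by over 1.5 times for Col1a1 (0.63), Tgfb2 (0.40), Pcolce (0.27), Mfge8 (−0.15), Dag1 (0.17) and Thbs2 (0.083). The same held for Kera (0.58) and Ogn (0.29), given above, and none of these genes passed.

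Among matrix receptors 10 of 18 varying probe sets were higher and 8 lower, and a dim Cd47 probe set came nearest to passing. Cd47, a receptor for thrombospondin, averaged 6.22 ± 0.112 over the knockouts and 5.89 ± 0.0444 over the wild types, with no overlap (1430997_at, difference 0.33, limma adjusted p = 0.0718). Its mean level in both groups was below the median probe set of the arrays, and the 3 brighter Cd47 probe sets that varied differed by 0.027 to 0.066. It passed without knockout 4 (adjusted p = 0.0421) and where varying probe sets alone were tested (adjusted p = 0.0186). Over its 18 alternatives the adjusted p ran from 0.0186 to 0.810. Dag1, dystroglycan, the laminin receptor of the fibre surface, differed by 0.26 (limma adjusted p = 0.578) in its brightest probe set and by 0.055 and 0.11 in the others.

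Several of the matrix genes varied together from array to array. Of the 28 pairs of the 8 genes, read by their brightest varying probe set, 5 passed an adjusted permutation p of 0.05 for Pearson's r over 10 arrays. They joined Dcn, Fn1, Sparc and Mmp2: Dcn with Mmp2 (r = 0.82, adjusted permutation p = 0.00728) and with Sparc (0.73), Fn1 with Sparc (0.79) and with Mmp2 (0.79), and Sparc with Mmp2 (0.79), the last 4 each at an adjusted permutation p = 0.0458. By Spearman's rho none of the 28 passed after adjustment, and the highest rho was that of Dcn with Mmp2 (0.85, permutation p = 0.00292, adjusted p = 0.0818). Deviations from the genotype means gave r = 0.80 for Dcn with Mmp2 and 0.87 for Fn1 with Mmp2, and 0 of 28 pairs passed there.

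The count depended on single arrays. It was 0 without wild type 1, 1 without knockout 1, 2, 3 or 5 or wild type 4 or 5, 4 without knockout 4 or wild type 2 and 6 without wild type 3. Leaving out the 2 arrays farthest from the median of the first gene, r fell to 0.40 for Dcn with Sparc, 0.54 for Fn1 with Sparc, 0.55 for Fn1 with Mmp2 and 0.50 for Sparc with Mmp2, so those 4 rest on such arrays. Dcn with Mmp2 kept r = 0.81, and in the fits without 1 array its r stayed between 0.81 and 0.86. That pair used the bright Dcn probe set alone. Without the same arrays, wild types 1 and 5, the dimmer Dcn probe set had r = −0.12 with the bright one, and it was not compared with Mmp2. Postn followed Fn1 more than it followed the other members (r = 0.70, adjusted permutation p = 0.0908). Its r was 0.79 without the 2 arrays farthest from the Postn median. Lum had r from −0.10 to 0.40 with the others and Fmod from −0.49 to 0.20, and none of their pairs passed. Bgn had r = 0.60 with Dcn, 0.67 with Fn1, 0.55 with Sparc and 0.63 with Mmp2, and none of its pairs passed. Without wild types 1 and 5 these 4 fell to −0.0090, 0.20, 0.027 and 0.21, so they rest on those arrays.

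**Figure D5:**
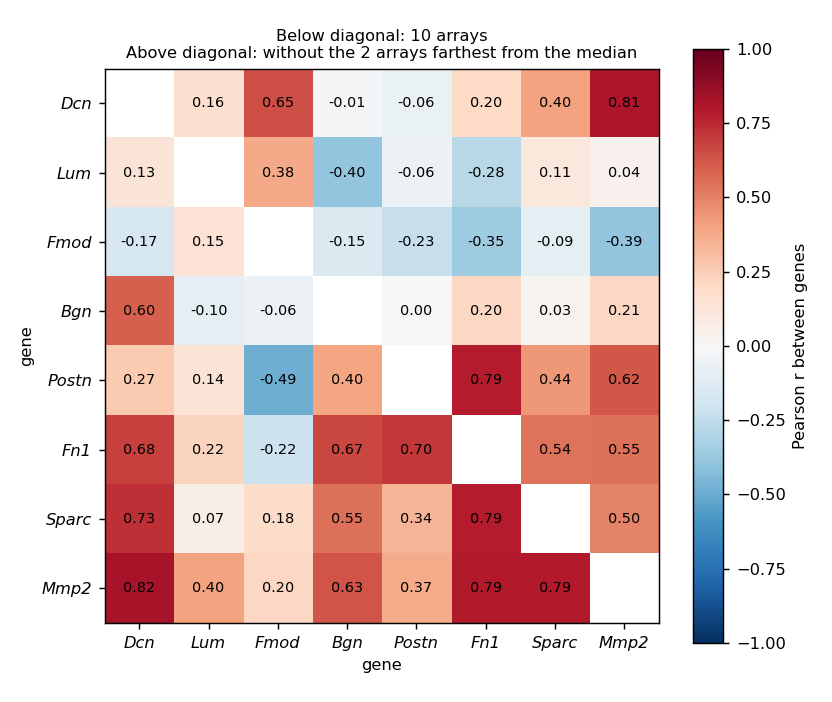
Pearson r between the brightest varying probe sets of 8 genes, over 10 arrays below the diagonal and without the 2 arrays farthest from the median of the first gene above it. Dcn with Mmp2 stood at 0.82 and 0.81, and Fmod with Postn was lowest over 10 arrays, at −0.49.

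Probe sets of the same gene served as a check on these readings. All 19 pairs of varying probe sets within Dcn, Fmod, Bgn, Sparc and Mmp2 passed an adjusted permutation p of 0.05 (r from 0.74 to 0.99). In Bgn, Sparc and Mmp2 r was 0.95, 0.93 and 0.94. The Dcn pair was weakest (r = 0.74, rho = 0.38), and its r became −0.12 without wild types 1 and 5, so its agreement rested on them.

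The mean of the standardised values of the 8 genes was lowest in wild type 1 (−1.22 SD units), followed by wild type 4 (−0.61), and highest in wild type 5 (0.88) and in knockouts 3 (0.76) and 2 (0.65). Among 3838 other genes with a varying probe set, the 8 with the highest Pearson r with this mean over 10 arrays were Rnase4 (0.90), Atf3 (0.89), the intermediate filament Vim (0.89), the receptor Egfr (0.88), the tenascin Tnxb (0.88), Col1a1 (0.88), the protease inhibitor Timp2 (0.88) and Col3a1 (0.88). These were picked as the highest of many and describe these 10 arrays. None differed between genotypes past the test, with limma adjusted p from 0.823 to 0.990. Fibroblast markers were low in wild type 1 as well, by 0.18 below the median array, and were highest in knockout 2 and wild type 3 (0.12). Of their 15 varying probe sets 13 were higher in knockouts (median 0.063) and 0 passed. Macrophage markers and matrix receptors were also lowest in wild type 1, at −0.41 and −0.25. Adipocyte markers stood at −0.26 there, but lower in wild type 4 (−0.60) and knockout 3 (−0.29). Endothelial (−0.060) and skeletal muscle markers (−0.013) lay near the median array in wild type 1. Above the median array in wild type 1 were tendon cell markers (0.18), the other small leucine-rich proteoglycans (0.16), hair (2.17) and epidermis markers (0.45).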

How the data were processed

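Gene expression was measured in gastrocnemius on Affymetrix mouse GeneChips, 5 per genotype, from 100 ng of RNA per the labels' protocols. From their range and near-equal array medians, the deposited numbers are taken to be log2 values normalized by the authors; for the software of scanning, summary and normalization, the sources used here name none. Of 45101 rows, 64 array controls were left out. Names came from the platform's annotation and were brought up to date by gene identifier against RefSeq (GRCm38.p6): 34945 had 1 gene, 34741 of them matched, 932 had several genes and 9160 were unnamed.

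The test was limma 3.58.1 (lmFit, eBayes without trend; R 4.3.3), with p-values adjusted over all probe sets. Tests on simulated data with 45037 probe sets (10 runs) recovered 36.7% of changes of 0.5 and 76.5% of changes of 1 (log2), with 5.35% false calls and 0 calls where nothing was changed. Changes were placed in varying probe sets alone. Noise was drawn independently for each probe set, so effects shared by an array, such as other tissue, were not simulated. Changes as small as those of the members, 0.30 at most over the 10 arrays, were not simulated either. Permutation tests used 100000 resamples for correlations over 10 arrays. Python 3.11.15 with pandas 2.3.3, numpy 2.4.6, scipy 1.17.1 and matplotlib 3.10.9 made tables and figures.

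The members and gene lists were chosen with earlier results of these data known. Members were all named; in each pathway list up to 4 genes past the threshold were named, or otherwise the 2 with the smallest p among varying probe sets; as genes of like pattern, the 8 with the highest r. Alternatives covered normalization, filters, moderation, weights per array, a block for the replicate number, leaving out each array, arrays with other tissue left out (mean deviation of a marker list above 1), the choice of probe set and a permutation test. Leaving out each array in the correlations was added after seeing the data, as was the comparison of Fmod with tendon markers.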

Additional observations from a re-analysis of the deposited data

Results flagged for a closer look

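In 66 groups of 5 arrays (the 17 varying probe sets of the members and the 16 of named pathway genes, in each genotype), 4 held an array far from the other 4 by Dixon's test, where chance gives about 1 in 20. Wild type 1 was low for Dcn at 12.53, with the next wild type at 12.91. Knockout 5 was high for Mfge8 at 9.44, with the next at 9.29. Wild type 2 was high for Acvr2a at 9.45, with the next at 9.24, and wild type 1 was high for Tgfb2 at 7.77, with the next at 7.44.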

How the results depend on the processing

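The count of members past the threshold was 0 under all 19 alternatives, and for genes with 1 probe set each under all 14. The exact permutation test and the fit without the 5 arrays with other tissue each called 0 probe sets in the whole table. Those alternatives therefore say nothing on whether members would pass. Of 323 differences recomputed for the 17 varying member probe sets, 307 kept their sign and 16 turned, in 7 probe sets. The permutation test, the filters, the other moderation and the replicate block leave the difference itself unchanged. Signs could not turn there, so the 307 include outcomes fixed in advance. Without the 5 arrays with other tissue, differences turned to −0.10 (Dcn 1441506_at), 0.24 (Fmod 1415939_at) and 0.015 (Postn), and with array weights to −0.010 (Fn1). The cause was not tested. In the fits without 1 array the difference ran from −0.11 to 0.069 for Fmod 1415939_at, from −0.040 to 0.15 for Fmod 1437718_x_at and from −0.022 to 0.16 for Fmod 1437324_x_at. It ran from −0.095 to 0.019 for Bgn 1416405_at, from −0.12 to 0.033 for Postn and from −0.038 to 0.097 for Fn1. The count over the pathway lists was 1 where varying probe sets alone were tested, with fewer probe sets to adjust over, and 0 to 1 in the fits without 1 array; the 1 was Cd47. The count of correlated pairs, 5, became 2 after quantile normalization and 0 with deviations from the genotype means, and ran from 0 to 6 without 1 array; with the 5 arrays left out it was not computed, as 5 arrays are too few.

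With the replicate number as a block, 0 members passed and 5 probe sets of the whole table did, against 86. That count was 31 to 57 without 1 array, 43 after quantile normalization, 143 among varying probe sets alone, and 0 by the exact permutation test or without the 5 arrays. Same-numbered arrays had r from −0.40 to 0.32 in their deviations, and 2 of 5 fitted best with their own number. With so few arrays this does not settle whether the number pairs mice. The number of arrays limits the precision, and signal over background was not assessed, as no detection call was used.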

Other observations

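Fibromodulin, which tendon cells make in quantity, was set beside the other tendon cell markers after its values were seen to differ from those of the other members. Of the 7 other genes on that list 4 had a varying brightest probe set. Over 10 arrays Fmod correlated with Kera (Pearson r = 0.79, rho = 0.77) and with Comp, cartilage oligomeric matrix protein (r = 0.78, rho = 0.75), each with an adjusted permutation p = 0.00918 over the 4 relations. For Tnmd, tenomodulin, r was 0.61 (adjusted permutation p = 0.0719) and for Thbs4 0.50 (adjusted permutation p = 0.135). Without the 2 arrays farthest from the Fmod median r was 0.56 for Kera, 0.73 for Comp, 0.51 for Tnmd and 0.15 for Thbs4. Deviations from the genotype means gave r = 0.76 for Kera and 0.78 for Comp, and without any 1 array r stayed between 0.71 and 0.94 for Kera and between 0.71 and 0.83 for Comp. None of the 4 differed between genotypes past the test (limma adjusted p from 0.957 to 0.9996). Comp averaged 7.44 ± 0.214 over the knockouts and 7.35 ± 0.194 over the wild types, and Tnmd 7.63 ± 0.256 and 7.67 ± 0.156 (SD over 5 arrays each).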
